A study of Mus musculus with 18 samples.

Results

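The genes described here are 47 targets and regulators of the unfolded protein response and of its transcription factor ATF4, followed through early adipogenesis of 3T3-L1 cells with and without knockdown (KD) of SIRT6. They come from a list of symbols, which was drawn up with earlier results of these data known, and were looked up in the probe annotation of the arrays. A gene was measured where the annotation gave it a cluster of probes (a transcript cluster, 1 row of the table) that carried no second symbol, and the cluster with the highest mean over the 18 arrays stood for it. This left 43 of the 47 genes, out of 22180 genes measured in the same way. Pdia4 and Aars had only clusters with several symbols, no cluster was listed for Pycr1, and Cebpg-like matched no symbol, so these 4 are not analysed here. The mean signal of 42 of the 43 lay above 6.55 on the log2 scale, the 95th percentile of 1405 clusters for olfactory and vomeronasal receptors, which preadipocytes are not known to use. Derl3 lay below it.

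Proteins that enter the endoplasmic reticulum (ER) are folded there by chaperones and disulfide isomerases, and those that fail are sent back to the cytosol for degradation. When unfolded protein accumulates, the ER membrane proteins IRE1 (Ern1), PERK (Eif2ak3) and ATF6 signal to the nucleus. IRE1 splices the Xbp1 mRNA, ATF6 is released as a transcription factor, and PERK phosphorylates the translation factor eIF2, which lowers protein synthesis overall but raises translation of the Atf4 mRNA. ATF4 is also translated more when amino acids run short, and it drives genes for amino acid synthesis, uptake and tRNA charging as well as the stress genes Ddit3, Trib3 and Chac1. XBP1 is known from work in 3T3-L1 cells as a factor needed for adipocyte differentiation, and CHOP, the product of Ddit3, is known to inhibit C/EBP factors, the family that starts the adipogenic program. All values here are mRNA levels. Splicing of Xbp1 and translation of Atf4 were not measured.

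3T3-L1 is a mouse preadipocyte line that becomes fat-storing when confluent cells receive IBMX, dexamethasone and insulin. According to the methods, SIRT6 KD cells carried a lentiviral short hairpin RNA (shRNA) against SIRT6, a histone deacetylase, introduced before induction. A control shRNA was used in the study, but it is not stated for the WT cells of the arrays. Total RNA was taken before induction (0 hr, untreated) and 20 hr and 40 hr after it, and each of the 6 groups (WT and SIRT6 KD at 0, 20 and 40 hr) held 3 Affymetrix Mouse Gene ST arrays. The sample labels give genotype, time and treated or untreated, but they describe inhibitor-treated mice and number the times without naming hours, so the cell line, the hairpin RNA and the unit of time were taken from the study's methods. The methods state at least 3 biological replicates for the cell culture work of the study, without naming the arrays. Nothing in the labels ties the 3 arrays of a group to separate cultures, and p-values measure the spread between these arrays. RNA came from whole cultures, in which fewer cells of a type and less RNA per cell cannot be told apart.

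Array medians lay between 6.41 and 6.54 on the log2 scale, and the lowest correlation between arrays of a group was 0.9905. Of the 18 arrays, 5 were nearer to the other genotype of their time than to their own. The knockdown itself was weak on these arrays, with Sirt6 signal of 6.96 to 7.41 in WT and 6.73 to 7.21 in SIRT6 KD and log2 differences of -0.18, -0.30 and -0.22 at 0, 20 and 40 hr (SE 0.11, limma adjusted p = 0.768, 0.617 and 0.479). Markers of fibroblasts and preadipocytes were all above the receptor level (8 of 8), and their mean signal per array was 10.95 to 11.10 at 0 hr and 10.46 to 10.62 later. Adipocyte markers (7 of 8 above that level) averaged 8.12 to 8.36 up to 20 hr and 9.07 to 9.32 at 40 hr, so cell state moved with time beside every change given here, and its part in them was not tested. Markers of macrophages (1 of 6 above the level), endothelium (0 of 6) and epithelium (2 of 6) had group means of 5.94 to 6.28, below that level.

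After induction the listed genes differed in part by role. Of the 14 ER chaperones, 5 to 8 rose and 0 fell in each comparison with 0 hr as deposited (1 fell in WT at 20 hr after cyclic loess). The stress genes Ddit3, Trib3 and Chac1 fell. Genes for amino acid supply and tRNA charging were mixed. In WT at 20 hr some were called lower, others were not called, and Shmt2, Slc3a2 and Wars were called higher. Of 13 further cytosolic aminoacyl-tRNA synthetases, given below, 8 were higher and 0 lower at 20 hr in each genotype. In WT, 15 of 43 genes (34.9%) rose and 9 (20.9%) fell between 0 and 20 hr at an adjusted p under 0.05 (limma, Benjamini-Hochberg over all 23521 clusters with 1 symbol). Over all clusters tested, 14.1% rose and 11.7% fell in that comparison, and over the 12585 clusters above the receptor level (the bright clusters), 24.7% rose and 17.1% fell. The listed genes were therefore called more often than clusters in general, and closer to the share among bright clusters. By 40 hr in WT, 11 genes were higher than at 0 hr and 9 lower, beside 12.2% and 10.6% of all clusters. In SIRT6 KD, 10 were higher and 10 lower at 20 hr (13.2% and 12.2% of all clusters), and 7 were higher and 14 lower at 40 hr (10.7% and 12.5%). Of bright clusters, 21% rose and 15.8% fell in WT at 40 hr. In SIRT6 KD, 21.4% of them rose and 18.5% fell at 20 hr, and 15.5% and 19.9% at 40 hr. Bright clusters were thus called more often than all clusters in each comparison with 0 hr, and nearly all listed genes are bright. The same shares stand beside the counts of single roles and of wider lists given below. A share above that of all clusters is therefore not shown to be particular to the listed genes.

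Fewer listed genes were called between 20 and 40 hr than between 0 and 20 hr, as was the case over all clusters. Some of the larger changes came after 20 hr. In that interval Xbp1 changed by 0.69 in WT and 0.77 in SIRT6 KD, Dnajb9 by 0.58 and 0.64, and Psat1 by -0.59 and -0.73. Between 20 and 40 hr, 3 genes rose and 2 fell in WT, beside 3.75% and 5.25% of all clusters. In SIRT6 KD, 3 rose and 5 fell, beside 3.73% and 6.55%, and without SIRT6 KD 20 hr replicate 2 the 8 calls became 5. The split between rises and falls depended on the scaling of the arrays. After cyclic loess, which removes differences between arrays that depend on brightness, the counts higher and lower were 11 and 13 in WT at 20 hr, 7 and 13 in WT at 40 hr, 9 and 13 in SIRT6 KD at 20 hr, 9 and 14 in SIRT6 KD at 40 hr, and 4 and 3 for SIRT6 KD between 20 and 40 hr. The median change of the 43 genes was 0.10 and 0.08 in WT and -0.04 and -0.05 in SIRT6 KD at 20 and 40 hr on the log2 scale, against 0.00 to 0.04 over all clusters. After cyclic loess it was 0.02 and 0.01 in WT and -0.06 and -0.06 in SIRT6 KD. The comparisons of 20 and of 40 hr with 0 hr share the 0 hr arrays of their genotype, so they are given side by side and not set against each other.

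**Figure D1:**
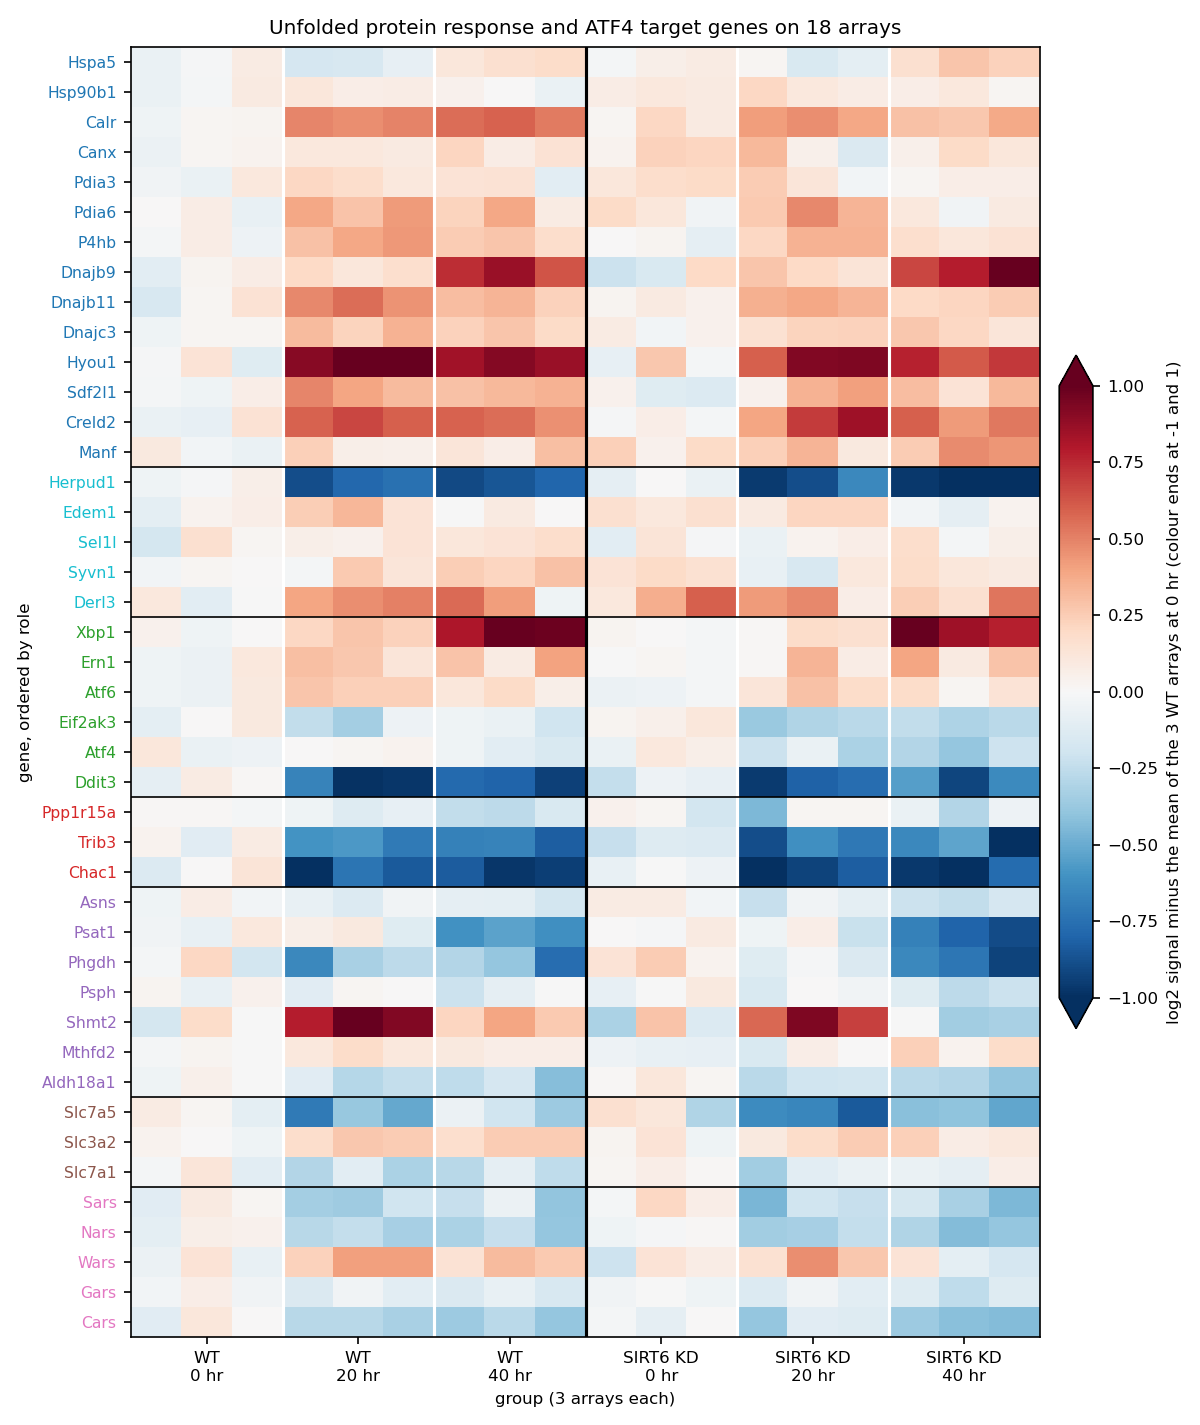
Heat map of the 43 measured genes (rows, by role) in the 18 arrays (columns, by group), coloured by log2 signal minus the gene's WT 0 hr mean, with the colour scale ending at -1 and 1. Hyou1, Calr and Creld2 are higher in all 12 arrays after induction than in the 6 before it, and Herpud1, Ddit3, Trib3 and Chac1 are lower in all 12.

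Of the 43 genes, 4 were called higher in all 4 comparisons with 0 hr (Calr, Hyou1, Sdf2l1 and Creld2) and 5 lower in all 4 (Herpud1, Ddit3, Trib3, Chac1 and Nars). Another 14 were called higher in some of them, 9 lower in some and 11 in none, and no gene was called in opposite directions. These counts describe the listed genes only, as no share of all clusters with the same patterns is given here.

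Chaperones and folding enzymes of the ER that were called against 0 hr were all called higher, in cells of both genotypes. Of 14 measured, 8 rose and 0 fell in WT by 20 hr, 8 and 0 by 40 hr, and in SIRT6 KD 7 and 0 by 20 hr and 5 and 0 by 40 hr. Their median changes on the log2 scale were 0.33, 0.24, 0.27 and 0.18, against 0.00, 0.00, 0.03 and 0.04 over all clusters. After cyclic loess the counts were 8 and 1, 6 and 0, 7 and 0 and 7 and 0, with medians of 0.23, 0.15, 0.23 and 0.19, and the chaperone called lower in WT at 20 hr was Hspa5.

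Many promoters of this group carry the ER stress response element (ERSE), CCAAT and CCACG separated by 9 bases, which ATF6 binds together with the general factor NF-Y. Windows from 250 bases before to 50 bases after the start of transcription were taken from RefSeq (GRCm38.p6) and searched on both strands. Of the 47 listed genes, 36 had such a window (38 windows in all), and 9 of the 38 (23.7%) held an ERSE, against 0.119% of the 32851 windows of all genes. The 9 were Calr, Canx, Creld2, Derl3, Dnajc3, Hsp90b1, Hspa5, Pdia6 and Syvn1, so 7 of the 12 chaperones with a window held one. The ERSE stretches of Hspa5 (chr2:34772010-34772058, plus strand), Calr (chr8:84847060-84847108, minus strand), Creld2 (chr15:88819505-88819553, plus strand) and Canx (chr11:50325785-50325833, minus strand) are shown because the same element stands before genes that behaved differently. Capitals mark the element, which lies in the opposite orientation in Calr and Creld2.
Hspa5: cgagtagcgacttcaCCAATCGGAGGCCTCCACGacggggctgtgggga
Calr: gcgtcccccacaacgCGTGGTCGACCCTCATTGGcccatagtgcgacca
Creld2: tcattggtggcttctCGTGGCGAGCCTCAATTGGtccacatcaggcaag
Canx: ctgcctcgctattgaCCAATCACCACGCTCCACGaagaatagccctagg
Calr and Creld2 rose in all 4 comparisons with 0 hr, whereas Hspa5, Canx and Hsp90b1 were called in none of the 4. By pattern, an ERSE stood before 2 of 3 genes called higher in all 4 comparisons, 4 of 12 called higher in some, 3 of 10 called in none and 0 of 11 called lower. By role, it stood before 7 of 12 chaperones, 2 of 5 genes of ER-associated degradation and 0 genes of the other roles. These counts do not separate pattern from role, and a tie of the element to the response was not tested. The genes were listed as targets of the unfolded protein response, so a high share of its elements is built into the list. A match of letters is a description of the window and not a measured binding site.

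Hyou1, which encodes an HSP70-related chaperone and exchange factor for BiP, had the largest rise of the listed genes in WT at 20 hr. Its log2 signal in WT was 8.36, 8.51 and 8.25 at 0 hr, 9.28, 9.43 and 9.43 at 20 hr and 9.21, 9.29 and 9.24 at 40 hr. SIRT6 KD arrays gave 8.29, 8.64 and 8.35 at 0 hr, 8.97, 9.30 and 9.31 at 20 hr and 9.14, 8.99 and 9.08 at 40 hr. Every array after induction was above every array before it. The rise in WT was 2.01-fold at 20 hr (log2 fold change 1.01, SE 0.10, adjusted p = 4.15e-07) and 1.83-fold at 40 hr (adjusted p = 3.05e-06). SIRT6 KD arrays gave 1.70-fold (log2 fold change 0.76, adjusted p = 1.37e-05) and 1.56-fold (adjusted p = 0.000119).

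Calr encodes calreticulin, a soluble chaperone that binds sugar chains on new glycoproteins. In WT its signal was 10.37, 10.43 and 10.44 at 0 hr, 10.90, 10.88 and 10.91 at 20 hr and 10.97, 11 and 10.93 at 40 hr. The SIRT6 KD values were 10.43, 10.62 and 10.50 at 0 hr, 10.83, 10.88 and 10.80 at 20 hr and 10.71, 10.68 and 10.79 at 40 hr. Arrays before and after induction did not overlap in either genotype, and at 40 hr the SIRT6 KD arrays stood below all WT arrays. The log2 fold changes were 0.48 and 0.55 in WT (SE 0.07, adjusted p = 1.88e-05 and 4.16e-06) and 0.32 and 0.21 in SIRT6 KD (adjusted p = 0.0013 and 0.0304). The call in SIRT6 KD at 40 hr ended under median centring of the arrays and without any one of SIRT6 KD 0 hr replicate 1 or 3 or SIRT6 KD 40 hr replicate 1 or 3, with an adjusted p of up to 0.137.

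Dnajb9 (ERdj4), a BiP cochaperone that is known to hold IRE1 in its inactive state, moved later. Its WT signal was 9.51, 9.64 and 9.69 at 0 hr, 9.81, 9.73 and 9.78 at 20 hr and 10.35, 10.48 and 10.24 at 40 hr. Knockdown cells gave 9.40, 9.46 and 9.81, then 9.89, 9.81 and 9.74, then 10.28, 10.40 and 10.69. All 40 hr arrays were above all earlier arrays. Its change at 20 hr did not pass the test (0.16 in WT and 0.26 in SIRT6 KD, SE 0.11, adjusted p = 0.351 and 0.106). At 40 hr it had risen 1.67-fold in WT (adjusted p = 4.45e-05) and 1.87-fold in SIRT6 KD (adjusted p = 4.56e-06), and the rise from 20 to 40 hr passed as well (0.58 and 0.64, adjusted p = 0.00142 and 0.000446).

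Hspa5 encodes BiP, the central HSP70 chaperone of the ER and the usual readout of the response. Its signal in WT was 10.26, 10.32 and 10.41 at 0 hr, 10.16, 10.17 and 10.25 at 20 hr and 10.44, 10.49 and 10.51 at 40 hr. Arrays of SIRT6 KD read 10.31, 10.39 and 10.41 at 0 hr, 10.35, 10.18 and 10.23 at 20 hr and 10.49, 10.61 and 10.56 at 40 hr. The 40 hr arrays were above all earlier arrays, and the 20 hr arrays were below those of 0 hr in WT and overlapped with them in SIRT6 KD. No comparison with 0 hr passed the test (log2 fold changes -0.14 and 0.15 in WT, -0.12 and 0.18 in SIRT6 KD, SE 0.07, adjusted p between 0.0739 and 0.284). After cyclic loess 2 of the 4 did (-0.23 in WT at 20 hr, adjusted p = 0.0163, and 0.20 in SIRT6 KD at 40 hr, adjusted p = 0.0466). The rise from 20 to 40 hr passed in WT (0.29, adjusted p = 0.0137) and in SIRT6 KD (0.30, adjusted p = 0.009). It was lost in WT without WT 20 hr replicate 1 or 2 or WT 40 hr replicate 3, and in SIRT6 KD without SIRT6 KD 20 hr replicate 2 (adjusted p up to 0.0633 and 0.108).

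Among the other chaperones, Creld2, a secreted ER protein made under stress, rose by 0.62 and 0.53 in WT and 0.64 and 0.51 in SIRT6 KD on the log2 scale (SE 0.10, adjusted p between 5.47e-05 and 0.000661). Sdf2l1, a partner of the BiP system, rose by 0.40 and 0.32 in WT and by 0.34 and 0.33 in SIRT6 KD (SE 0.09). Its calls ended without WT 0 hr replicate 2 (WT at 40 hr), without SIRT6 KD 20 hr replicate 3 (SIRT6 KD at 20 hr), and without SIRT6 KD 0 hr replicate 2 or 3 or SIRT6 KD 40 hr replicate 1 or 3 (SIRT6 KD at 40 hr). The cochaperones Dnajb11 and Dnajc3 and the disulfide isomerases P4hb and Pdia6 rose in WT at 20 hr by 0.50, 0.29, 0.37 and 0.36. Dnajb11, P4hb and Pdia6 also rose in SIRT6 KD at 20 hr (0.30, 0.32 and 0.27), and Dnajb11, Dnajc3 and P4hb in WT at 40 hr (0.29, 0.23 and 0.24). The WT calls at 40 hr ended after cyclic loess (Dnajc3 and P4hb), without WT 0 hr replicate 1 (all 3 genes), WT 40 hr replicate 2 (Dnajc3 and P4hb), WT 0 hr replicate 3 or WT 40 hr replicate 1 (P4hb). The call of Pdia6 in SIRT6 KD at 20 hr ended without SIRT6 KD 0 hr replicate 2 or 3 or SIRT6 KD 20 hr replicate 2 or 3. Pdia6 was the chaperone that fell again between 20 and 40 hr in SIRT6 KD (-0.31, adjusted p = 0.0302). That fall was lost after cyclic loess and without SIRT6 KD 20 hr replicate 2 or 3 or SIRT6 KD 40 hr replicate 2 or 3 (adjusted p up to 0.154). The glycoprotein chaperone Canx, the isomerase Pdia3, the HSP90 family member Hsp90b1 and the secreted factor Manf were called in no comparison with 0 hr.

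**Figure D2:**
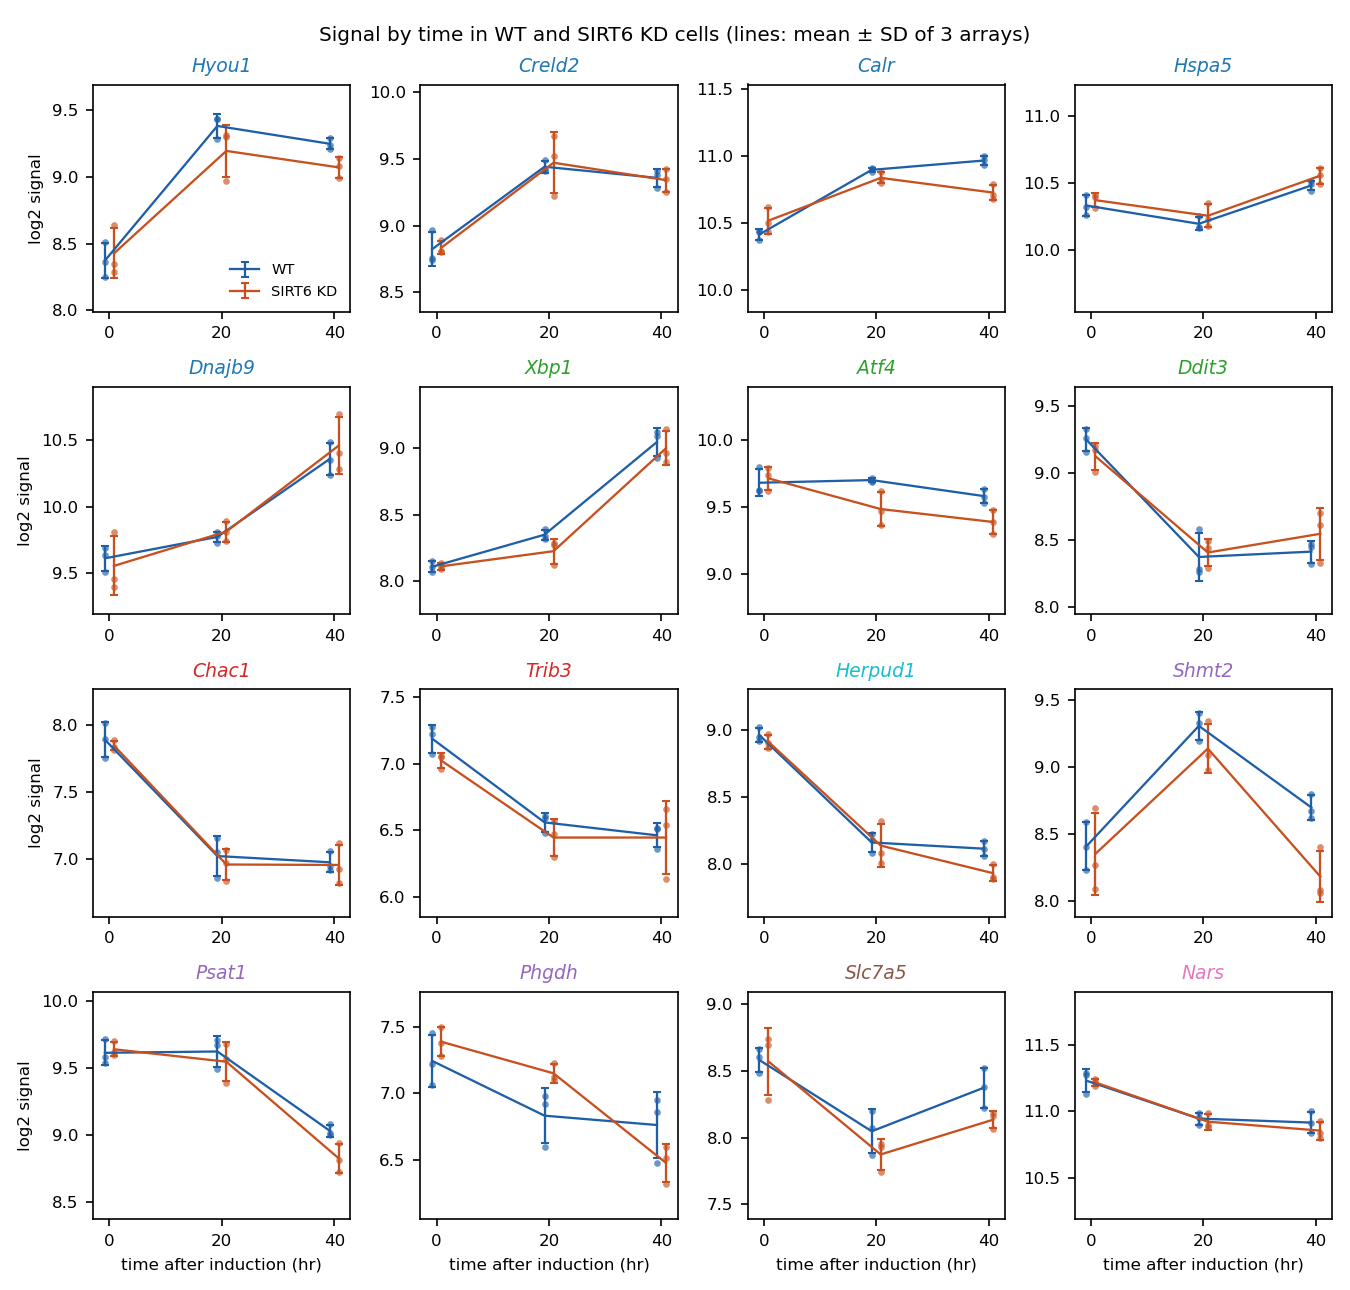
Log2 signal of 16 of the genes at 0, 20 and 40 hr, with 1 point for each array and lines through the group means with SD bars (n = 3) for WT and SIRT6 KD; each vertical axis spans 1.7 log2 units. Hyou1, Calr and Creld2 are raised at both times, Dnajb9 and Xbp1 at 40 hr, Shmt2 at 20 hr, and Herpud1, Ddit3, Trib3 and Chac1 are lowered at both.

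ER-associated degradation (ERAD) moves misfolded proteins out of the ER to the proteasome, and its 5 measured genes did not move together. In WT 2 rose and 1 fell at 20 hr and 1 rose and 1 fell at 40 hr, and in SIRT6 KD 0 rose and 1 fell at each time. Over all clusters, 14.1% rose and 11.7% fell in WT at 20 hr and 12.2% and 10.6% at 40 hr. In SIRT6 KD these shares were 13.2% and 12.2% at 20 hr and 10.7% and 12.5% at 40 hr. Counts among 5 genes are too few to be read against such shares. After cyclic loess the counts were 1 and 1, 0 and 1, 0 and 2 and 0 and 1. The gene that fell in each of the 4 comparisons was Herpud1.

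Herpud1 encodes a membrane protein of the ERAD complex and is known as one of the genes most strongly induced by ER stress, through both ATF6 and ATF4. Its window holds both a C/EBP-ATF response element (CARE, TGATGNAA, bound by ATF4 with C/EBP factors) and an ERSE-II (ATTGG and CCACG, 1 base apart), the only listed gene with the pair. CARE stood in 5 of 38 windows of listed genes (13.2%) against 3.97% of all windows, and ERSE-II in 2 of 38 (5.26%, Herpud1 and Dnajb11) against 0.0365%. These shares, too, are those of genes listed as targets of this response and of ATF4. The stretch with both elements in capitals lies at chr8:94386302-94386402 on the plus strand, with the CARE first and in the opposite orientation.
Herpud1: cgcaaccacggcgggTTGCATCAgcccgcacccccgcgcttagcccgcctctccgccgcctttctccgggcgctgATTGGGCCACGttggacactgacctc
The signal of Herpud1 in WT was 8.92, 8.95 and 9.02 at 0 hr, 8.08, 8.18 and 8.22 at 20 hr and 8.06, 8.11 and 8.17 at 40 hr. In SIRT6 KD it was 8.87, 8.97 and 8.90 at 0 hr, 8.01, 8.08 and 8.32 at 20 hr and 8.0, 7.90 and 7.89 at 40 hr. No array after induction reached the lowest array before it. Its signal fell to 0.575 and 0.556 of the 0 hr level in WT (log2 fold changes -0.80 and -0.85, SE 0.08, adjusted p = 2.93e-07 and 1.43e-07) and to 0.583 and 0.505 in SIRT6 KD (adjusted p = 4.16e-07 and 1.75e-08).

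The other ERAD genes changed little. Edem1, a lectin that marks glycoproteins for disposal, read 8.57, 8.70 and 8.73 at 0 hr and 8.91, 9.0 and 8.80 at 20 hr in WT. These arrays did not overlap, whereas the WT 40 hr arrays (8.66 to 8.76) overlapped with 0 hr, as did SIRT6 KD at 20 hr (8.77 to 8.83 at 0 hr, 8.76 to 8.88 at 20 hr, 8.58 to 8.70 at 40 hr). The WT rise of 0.23 passed the test (SE 0.07, adjusted p = 0.0245). A dimmer second cluster of the gene gave 0.16 (adjusted p = 0.246), and the call was lost after cyclic loess, with the mean of both clusters, and without WT 0 hr replicate 1 or WT 20 hr replicate 1 or 2 (adjusted p up to 0.13). Derl3, a derlin of the retrotranslocation channel, read 5.96, 5.75 and 5.85 at 0 hr and 6.25, 6.32 and 6.36 at 20 hr in WT, and all 18 arrays (5.75 to 6.45) lay below the receptor level. The SIRT6 KD arrays overlapped between times. Its rise of 0.46 (SE 0.15, adjusted p = 0.0294) was lost without WT 0 hr replicate 2 or 3 or WT 20 hr replicate 2 or 3 (adjusted p up to 0.108). Syvn1, the ERAD ubiquitin ligase HRD1, was called higher in WT at 40 hr (0.25, adjusted p = 0.0319), a call lost after cyclic loess and without any one of the 6 arrays compared. Its partner Sel1l was called in no comparison.

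Of the 6 sensors and transcription factors measured, WT cells had 2 higher and 1 lower at 20 hr and 1 and 1 at 40 hr, and SIRT6 KD cells 1 and 3 at each time. After cyclic loess the WT counts were 0 and 2 and 1 and 1, with the SIRT6 KD counts as before. Xbp1 encodes the transcription factor that IRE1 activates by splicing its mRNA. Its log2 signal in WT was 8.15, 8.07 and 8.11 at 0 hr, 8.32, 8.39 and 8.34 at 20 hr and 8.92, 9.12 and 9.09 at 40 hr. The knockdown arrays read 8.14, 8.11 and 8.09 at 0 hr, 8.12, 8.29 and 8.27 at 20 hr and 9.14, 8.96 and 8.89 at 40 hr. The 40 hr arrays stood clear of all others in both genotypes. At 40 hr the signal was 1.91-fold the 0 hr level in WT (log2 fold change 0.93, SE 0.08, adjusted p = 3.24e-08) and 1.85-fold in SIRT6 KD (0.88, adjusted p = 6.35e-08). Most of this came after 20 hr, with a rise from 20 to 40 hr of 0.69 in WT (adjusted p = 3.83e-06) and 0.77 in SIRT6 KD (adjusted p = 8.59e-07). The 20 hr change was 0.24 in WT (adjusted p = 0.0319) and 0.12 in SIRT6 KD (adjusted p = 0.337). The WT call at 20 hr was lost after cyclic loess and without WT 0 hr replicate 2 or 3 or any one WT 20 hr array (adjusted p up to 0.115).

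Ddit3, which encodes the stress factor CHOP, fell in cells of both genotypes. Its signal was 9.16, 9.33 and 9.26 at 0 hr, 8.58, 8.26 and 8.28 at 20 hr and 8.47, 8.45 and 8.32 at 40 hr in WT. SIRT6 KD arrays gave 9.01, 9.20 and 9.17, then 8.29, 8.44 and 8.49, then 8.70, 8.33 and 8.61. Every array after induction was below every array before it. The level dropped to 0.544 and 0.562 of that at 0 hr in WT (log2 fold changes -0.88 and -0.83, SE 0.10, adjusted p = 2.53e-06 and 5.89e-06) and to 0.609 and 0.670 in SIRT6 KD (adjusted p = 3.06e-05 and 0.000362).

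The mRNA of Atf4 itself changed by less than those of Ddit3, Trib3 and Chac1. In WT it read 9.80, 9.62 and 9.63 at 0 hr, 9.69, 9.70 and 9.72 at 20 hr and 9.64, 9.58 and 9.53 at 40 hr. Each later time overlapped with 0 hr, and the 40 hr arrays were below the 20 hr arrays, a change of -0.12 that did not pass the test (adjusted p = 0.521). The SIRT6 KD values were 9.62, 9.79 and 9.74 at 0 hr, 9.47, 9.62 and 9.37 at 20 hr and 9.39, 9.30 and 9.48 at 40 hr, with the 40 hr arrays below all 0 hr arrays. The WT changes were 0.02 and -0.10 (SE 0.08, adjusted p = 0.916 and 0.476). In SIRT6 KD the falls of 0.23 and 0.32 passed (log2 fold changes -0.23 and -0.32, adjusted p = 0.0445 and 0.00568). The call at 20 hr was lost under 15 of 28 alternatives, with an adjusted p of up to 0.196, among them the removal of SIRT6 KD 0 hr replicate 2 or 3, SIRT6 KD 20 hr replicate 1 or 3, SIRT6 KD 40 hr replicate 1, any one WT 20 hr array, or WT 40 hr replicate 1 or 2. The call at 40 hr kept its side of the threshold under all 28.

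Of the sensors, Atf6 rose at 20 hr in WT (0.25, SE 0.07, adjusted p = 0.0138) and in SIRT6 KD (0.24, adjusted p = 0.023). These calls were lost after cyclic loess or without WT 0 hr replicate 2 (WT), and without SIRT6 KD 0 hr replicate 1 or 2 or SIRT6 KD 20 hr replicate 2 (SIRT6 KD). Eif2ak3, the gene of PERK, was called lower in SIRT6 KD at 20 and 40 hr (-0.37 and -0.34, SE 0.08, adjusted p = 0.00175 and 0.00443). In WT its changes were -0.21 and -0.10 (adjusted p = 0.0672 and 0.472), and the first was called after cyclic loess (-0.28, adjusted p = 0.00965). Ern1, the gene of IRE1, was called in no comparison.

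Of the 3 stress effectors downstream of ATF4, Trib3 and Chac1 fell in all 4 comparisons with 0 hr, under each scaling, and Ppp1r15a, which encodes the phosphatase subunit GADD34 that reverses the block of translation, was called in none. Chac1 encodes an enzyme that degrades glutathione. CARE stood in the windows of Chac1, Trib3, Herpud1, Asns and Gars. By pattern, these were 3 of 4 genes called lower in all 4 comparisons, 1 of 7 called lower in some and 1 of 10 called in none. Of genes called higher in all 4 or in some, 0 of 3 and 0 of 12 held one. By role, it stood in 2 of 3 stress effectors, 1 of 5 ERAD genes, 1 of 7 synthesis genes and 1 of 2 synthetases. In Trib3 it lies after the start of transcription (bases 15 to 22). A tie of the element to the response was not tested. The CARE stretches of Chac1 (chr2:119351034-119351071, plus strand) and Asns (chr6:7693210-7693247, minus strand) are shown as a pair of ATF4 targets that moved by different amounts, with the element in capitals.
Chac1: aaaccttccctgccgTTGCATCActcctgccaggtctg
Asns: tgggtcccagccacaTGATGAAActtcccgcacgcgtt
The signal of Chac1 in WT was 7.76, 7.90 and 8.02 at 0 hr, 6.86, 7.16 and 7.05 at 20 hr and 7.06, 6.92 and 6.95 at 40 hr. Knockdown cells gave 7.82, 7.89 and 7.84 at 0 hr, 6.84, 6.97 and 7.07 at 20 hr and 6.93, 6.82 and 7.12 at 40 hr. A gap separated the 6 arrays before induction from the 12 after it. The log2 fold changes were -0.87 and -0.92 in WT and -0.89 and -0.89 in SIRT6 KD (SE 0.10, adjusted p between 6.64e-07 and 1.07e-06), so the level was 0.530 to 0.546 of that at 0 hr.

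Trib3 encodes a pseudokinase that is induced by ATF4 and CHOP and binds AKT. It read 7.22, 7.07 and 7.27 at 0 hr, 6.59, 6.61 and 6.48 at 20 hr and 6.51, 6.52 and 6.36 at 40 hr in WT. In SIRT6 KD it read 6.96, 7.06 and 7.05, then 6.3, 6.57 and 6.47, then 6.54, 6.66 and 6.14. Arrays before and after induction did not overlap, and part of the later values lay at or under the receptor level. The fall was -0.63 and -0.72 in WT (SE 0.11, adjusted p = 0.000195 and 4.58e-05) and -0.58 and -0.57 in SIRT6 KD (adjusted p = 0.000465 and 0.000573) on the log2 scale.

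**Figure D3:**
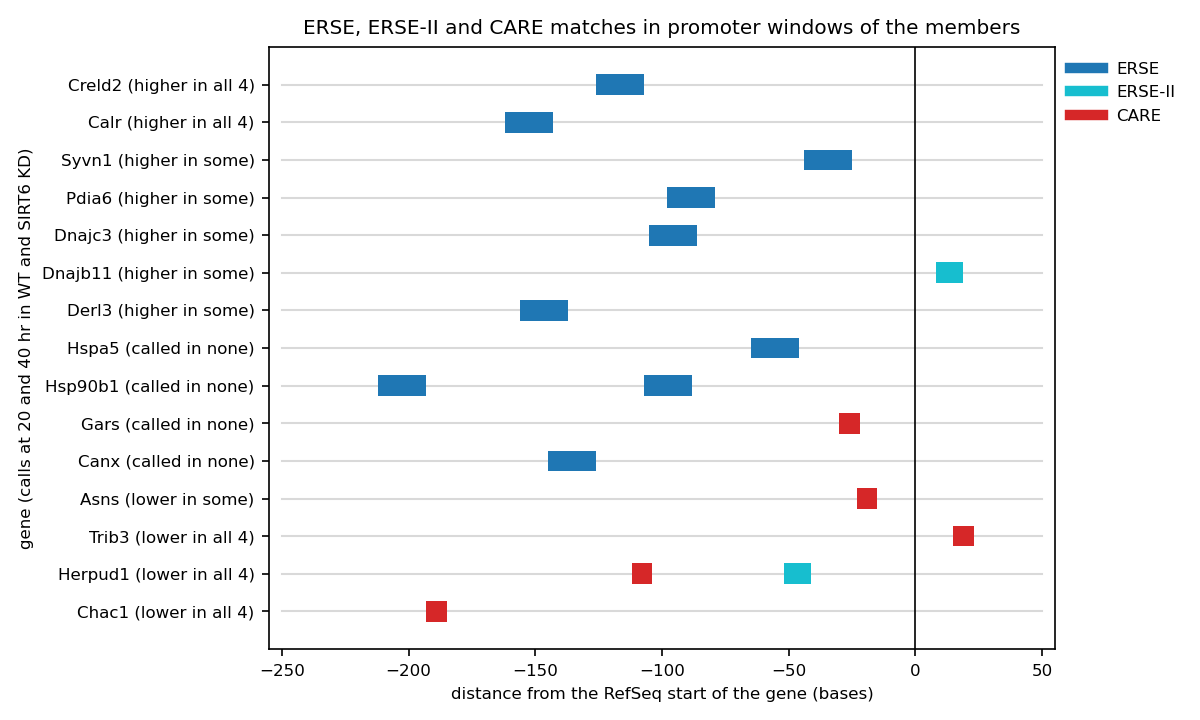
Positions of ERSE, ERSE-II and CARE matches in the promoter windows of the listed genes (horizontal axis, bases from the RefSeq start of transcription; rows, genes). ERSE matches stand before the start in 9 genes and CARE matches in 5 windows, with Herpud1 the gene that holds both a CARE and an ERSE-II.

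Of the other motifs searched, TGACGTGG, the UPRE that XBP1 binds, stood in 0 of 38 windows (0.676% of all windows), and TGACGTCA, the CRE, in 1 (2.63% against 1.79%), that of Ppp1r15a.

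Genes for amino acid and one-carbon synthesis supply the building blocks of proteins and nucleotides, and several are known ATF4 targets. Of 7 measured, 1 rose and 1 fell in WT at 20 hr, 0 and 3 at 40 hr, and in SIRT6 KD 1 and 1 at 20 hr and 1 and 4 at 40 hr. Their medians on the log2 scale went from -0.03 to -0.12 in WT and from -0.09 to -0.26 in SIRT6 KD. After cyclic loess the counts were 1 and 2, 0 and 4, 1 and 2 and 1 and 4.

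Shmt2, the mitochondrial serine hydroxymethyltransferase that feeds one-carbon units into nucleotide synthesis, rose at 20 hr and came down by 40 hr. In WT it read 8.23, 8.59 and 8.40 at 0 hr, 9.19, 9.40 and 9.33 at 20 hr and 8.62, 8.80 and 8.67 at 40 hr. Arrays of SIRT6 KD read 8.09, 8.69 and 8.27 at 0 hr, 8.98, 9.34 and 9.09 at 20 hr and 8.40, 8.06 and 8.08 at 40 hr. The 20 hr arrays were above all others of their genotype. The rise was 1.86-fold in WT (log2 fold change 0.90, SE 0.14, adjusted p = 5.3e-05) and 1.72-fold in SIRT6 KD (0.79, adjusted p = 0.000233). From 20 to 40 hr it fell by 0.61 in WT (log2 fold change -0.61, adjusted p = 0.00675) and by 0.96 in SIRT6 KD (-0.96, adjusted p = 6.62e-05), and neither 40 hr level was called different from 0 hr (0.29 and -0.17, adjusted p = 0.159 and 0.419).

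Psat1 and Phgdh encode enzymes of serine synthesis. Psat1 read 9.58, 9.54 and 9.72 at 0 hr, 9.67, 9.71 and 9.49 at 20 hr and 9.01, 9.08 and 9.0 at 40 hr in WT. The knockdown arrays read 9.62, 9.60 and 9.70, then 9.57, 9.68 and 9.39, then 8.94, 8.81 and 8.72. The first 2 times overlapped and the third lay below both. Between 0 and 40 hr Psat1 fell by 0.58 in WT (log2 fold change -0.58, SE 0.09, adjusted p = 5.18e-05) and by 0.82 in SIRT6 KD (-0.82, adjusted p = 8.26e-07).

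The signal of Phgdh was 7.22, 7.45 and 7.06 at 0 hr, 6.60, 6.92 and 6.98 at 20 hr and 6.95, 6.86 and 6.48 at 40 hr in WT. SIRT6 KD arrays gave 7.38, 7.5 and 7.28 at 0 hr, 7.12, 7.23 and 7.10 at 20 hr and 6.60, 6.52 and 6.32 at 40 hr. Part of the 40 hr values lay under the receptor level in both genotypes. WT arrays fell at 20 hr and stayed there, whereas SIRT6 KD arrays were lowest at 40 hr. The change of the knockdown effect between 20 and 40 hr was not called, as given below, so a different time course is not shown. The WT changes were -0.41 and -0.48 (SE 0.13, adjusted p = 0.0236 and 0.0103), and those in SIRT6 KD -0.24 and -0.91 (adjusted p = 0.211 and 2.61e-05). The WT call at 20 hr was lost without WT 0 hr replicate 1 or 2 or WT 20 hr replicate 1 (adjusted p up to 0.146), and that at 40 hr without WT 0 hr replicate 2 or WT 40 hr replicate 3 (up to 0.0784).

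Aldh18a1, which starts proline synthesis, was called lower in WT at 40 hr (-0.28) and in SIRT6 KD at 20 and 40 hr (-0.27 and -0.37). Its call in WT ended without WT 0 hr replicate 2 or WT 40 hr replicate 3, and that in SIRT6 KD at 20 hr without SIRT6 KD 0 hr replicate 2. Asns, the asparagine synthetase gene, was called lower in SIRT6 KD at 40 hr (-0.26), a call lost without SIRT6 KD 0 hr replicate 2 (adjusted p = 0.0509). Its other changes were -0.09, -0.12 and -0.17. Mthfd2, a mitochondrial folate enzyme, was the gene called higher in SIRT6 KD at 40 hr (0.23), a call lost under median centring and without any one SIRT6 KD 0 hr array or SIRT6 KD 40 hr replicate 1 or 3 (adjusted p up to 0.125). Psph was called in no comparison.

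Of the amino acid transporters, Slc7a5 fell and Slc3a2 rose in WT at 20 hr, although they are known as the light and heavy chains of 1 transporter, LAT1. Slc7a5 read 8.66, 8.6 and 8.48 at 0 hr, 7.87, 8.20 and 8.07 at 20 hr and 8.52, 8.38 and 8.22 at 40 hr in WT. The SIRT6 KD values were 8.74, 8.69 and 8.28, then 7.95, 7.93 and 7.74, then 8.16, 8.18 and 8.06. The 20 hr arrays were below all 0 hr arrays in both genotypes, and at 40 hr WT overlapped with 0 hr and SIRT6 KD did not. The falls at 20 hr were -0.53 in WT (SE 0.12, adjusted p = 0.00173) and -0.70 in SIRT6 KD (adjusted p = 0.000137), and those at 40 hr -0.21 (adjusted p = 0.257) and -0.44 (adjusted p = 0.00989). The SIRT6 KD call at 40 hr was lost without SIRT6 KD 0 hr replicate 1 or 2 (adjusted p up to 0.061).

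Slc3a2 read 9.18, 9.15 and 9.10 at 0 hr, 9.32, 9.41 and 9.40 at 20 hr and 9.31, 9.40 and 9.40 at 40 hr in WT, without overlap between 0 hr and later. In SIRT6 KD it read 9.17, 9.28 and 9.10, then 9.24, 9.33 and 9.40, then 9.38, 9.22 and 9.25, with overlap. Its WT changes were 0.23 at each time (SE 0.07, adjusted p = 0.0287 and 0.0338), and both calls were lost after cyclic loess and without WT 0 hr replicate 2 or 3 or replicate 2 or 3 of the later time (adjusted p up to 0.227 and 0.203). The SIRT6 KD changes were 0.14 and 0.10 (adjusted p = 0.202 and 0.382). Slc7a1, a carrier of cationic amino acids, was called in no comparison as deposited (-0.24, -0.21, -0.20 and -0.06, SE 0.09). Its arrays ranged from 7.64 to 7.87 at 0 hr in WT, from 7.43 to 7.64 at 20 hr and from 7.47 to 7.66 at 40 hr, and in SIRT6 KD from 7.76 to 7.81, from 7.40 to 7.68 and from 7.66 to 7.81. The groups lay close together, and after cyclic loess both WT falls passed (adjusted p = 0.0247 and 0.0479).

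Aminoacyl-tRNA synthetases charge tRNAs with their amino acids. Of the 5 measured, 1 rose and 3 fell in WT at 20 hr, 0 and 2 at 40 hr, and in SIRT6 KD 1 and 2 at 20 hr and 0 and 3 at 40 hr, with medians of -0.28, -0.23, -0.17 and -0.36 on the log2 scale. After cyclic loess the counts were 1 and 3, 0 and 4, 0 and 3 and 0 and 3, and after median centring the WT counts at 20 hr were 1 and 2. Nars, for asparagine, read 11.13, 11.29 and 11.27 at 0 hr, 10.95, 10.99 and 10.90 at 20 hr and 10.91, 11 and 10.84 at 40 hr in WT. Knockdown cells gave 11.19, 11.22 and 11.24, then 10.88, 10.90 and 10.99, then 10.93, 10.80 and 10.84. All later arrays lay below all 0 hr arrays. The changes were small but uniform, at -0.28 and -0.31 in WT and -0.29 and -0.36 in SIRT6 KD (SE 0.07, adjusted p between 0.000847 and 0.00536).

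Sars, for serine, read 10.02, 10.23 and 10.16 at 0 hr, 9.80, 9.78 and 9.94 at 20 hr and 9.91, 10.08 and 9.74 at 40 hr in WT. Arrays of SIRT6 KD read 10.12, 10.34 and 10.20, then 9.68, 9.94 and 9.91, then 9.96, 9.81 and 9.69. The 20 hr arrays were below the 0 hr arrays in both genotypes, and the WT 40 hr arrays overlapped with them. Its log2 fold changes were -0.30 and -0.23 in WT (SE 0.10, adjusted p = 0.0391 and 0.138) and -0.38 and -0.40 in SIRT6 KD (adjusted p = 0.00986 and 0.00754). The WT call was lost in the unmoderated test, in a fit of all clusters of the table and under median centring. It was also lost without WT 0 hr replicate 2 or 3 or WT 20 hr replicate 1 or 2 (adjusted p up to 0.148 over all alternatives). The SIRT6 KD call at 20 hr was lost without SIRT6 KD 0 hr replicate 2 or SIRT6 KD 20 hr replicate 1 (up to 0.056).

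Cars, for cysteine, read 8.12, 8.35 and 8.24 at 0 hr, 7.96, 7.96 and 7.91 at 20 hr and 7.87, 7.97 and 7.85 at 40 hr in WT. The knockdown arrays read 8.22, 8.15 and 8.24, then 7.85, 8.12 and 8.11, then 7.87, 7.82 and 7.8. Later arrays were below the 0 hr arrays in both genotypes, narrowly so in SIRT6 KD at 20 hr. The changes were -0.29 and -0.34 in WT (SE 0.08, adjusted p = 0.0117 and 0.0045) and -0.17 and -0.37 in SIRT6 KD (adjusted p = 0.143 and 0.00225), and the WT call at 20 hr was lost without WT 0 hr replicate 2 (adjusted p = 0.0731). Wars, for tryptophan, was the synthetase called higher at 20 hr, by 0.35 in WT (SE 0.11, adjusted p = 0.0197) and 0.30 in SIRT6 KD (adjusted p = 0.0489), and it fell from 20 to 40 hr in SIRT6 KD (-0.35, adjusted p = 0.0478). Its WT call ended without WT 0 hr replicate 1 or 3 or WT 20 hr replicate 2 or 3, and each of its SIRT6 KD calls was lost under 17 of 28 alternatives, with an adjusted p of up to 0.245 and 0.228. Of the single arrays, only the removal of WT 0 hr replicate 2, SIRT6 KD 0 hr replicate 2, SIRT6 KD 20 hr replicate 1 or SIRT6 KD 40 hr replicate 1 or 3 left the rise at 20 hr called, and only that of WT 0 hr replicate 2, SIRT6 KD 0 hr replicate 1 or 2, SIRT6 KD 20 hr replicate 1 or SIRT6 KD 40 hr replicate 1 left the later fall called. Gars was called in no comparison as deposited and was called lower in WT at 40 hr after cyclic loess (-0.21, adjusted p = 0.0249).

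**Figure D4:**
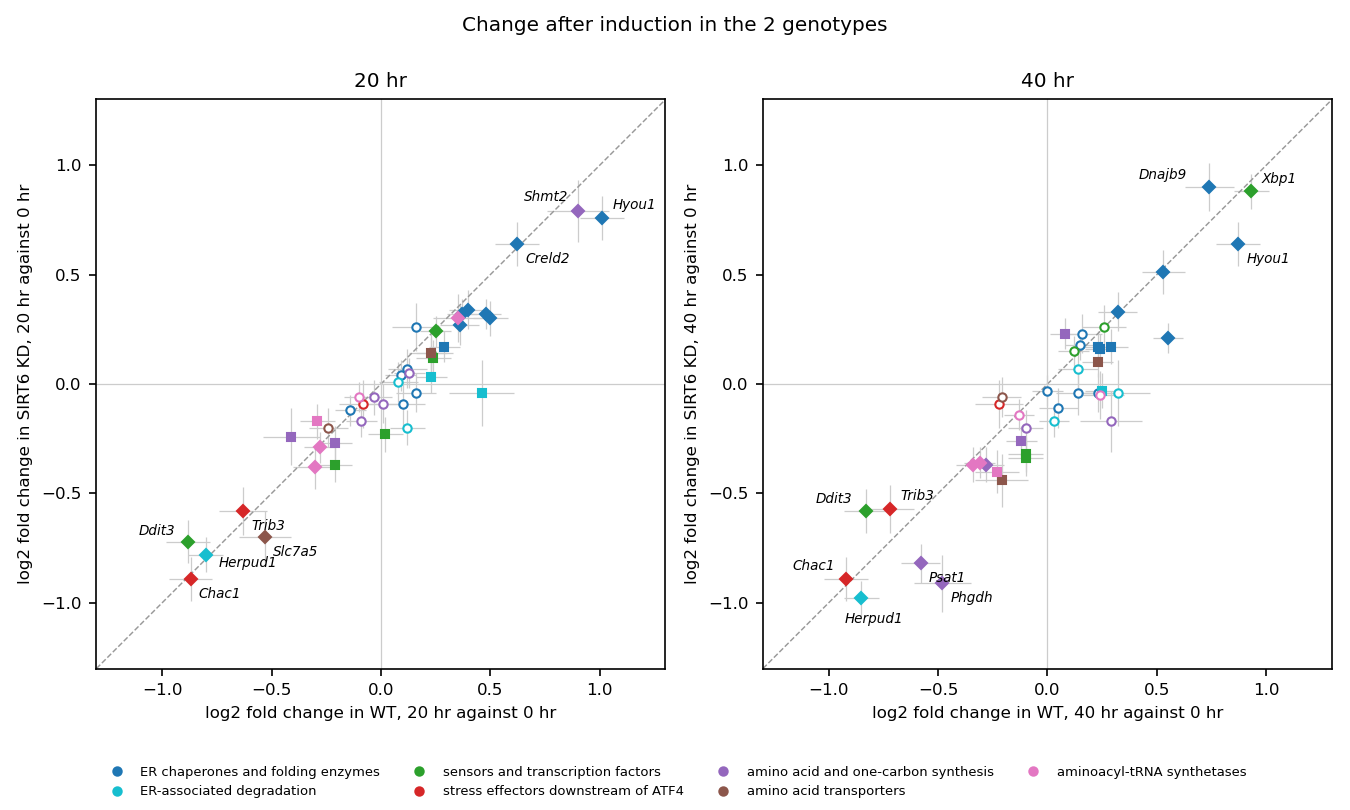
Change from 0 hr in SIRT6 KD (vertical) against that in WT (horizontal) at 20 and 40 hr, in log2 units, for the 43 genes; bars are SE, diamonds were called in both genotypes, squares in 1 and open circles in neither, and the dashed line marks equal change. No gene called in both genotypes lies in opposite directions.

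The listed genes changed in the same direction in WT and SIRT6 KD cells wherever both were called. At 20 hr, 24 genes were called in WT and 20 in SIRT6 KD, and 17 were called in both, all in 1 direction. At 40 hr the counts were 20 and 21, with 15 in both and 0 in opposite directions. Across the 43 genes the changes in the 2 genotypes had a Pearson r of 0.96 at 20 hr and 0.92 at 40 hr (Spearman rho 0.94 and 0.88), beside 0.90 and 0.86 over all clusters. These correlations are across genes, which are not independent replicates, and are given as a description. The comparison over all clusters includes dim ones, as 53.5% of them lay above the receptor level. The share of all clusters called in both genotypes is not given here. The common direction is therefore not shown to be particular to the listed genes.

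Between SIRT6 KD and WT themselves no listed gene passed the test. limma called 0 of the 43 genes at 0 hr (0% of all clusters), at 20 hr (0.0213%), at 40 hr (0.0935%) and averaged over the times (0.378%). The change of the SIRT6 KD effect between times was called for 0 of them as well, from 0 to 20 hr (0% of all clusters), from 0 to 40 hr (0%) and from 20 to 40 hr (0%). An unadjusted p under 0.05 was reached by 1, 3 and 9 of the 43 at 0, 20 and 40 hr (3, 5 and 8 in the unmoderated test), by 4 for the average (5) and by 3, 4 and 2 for the changes of the effect (5, 6 and 3). In limma these were 2.33%, 6.98% and 20.9% of the 43 at 0, 20 and 40 hr, beside 6.91%, 6.65% and 11% of all clusters and 14% of bright clusters at 40 hr. For the average the shares were 9.3% and 11.4% of all clusters, and for the changes of the effect 6.98%, 9.3% and 4.65% beside 5.02%, 9.37% and 4.44%.

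Genes whose SIRT6 KD and WT arrays did not overlap were most numerous at 40 hr, where most were lower in SIRT6 KD as deposited (11 of 12) and 7 of 10 after cyclic loess. All 3 SIRT6 KD arrays were below all WT arrays in 2 genes at 0 hr, 5 at 20 hr and 11 at 40 hr (25.6%), where the shares of all clusters were 6.74%, 6.24% and 9.8%. They were above all WT arrays in 3, 1 and 1 genes, beside 5.6%, 5.42% and 6.13%. Among clusters above the receptor level, 15.9% were below and 4.32% above at 40 hr, so bright clusters leaned the same way. After cyclic loess, 7 genes were below and 3 above at 40 hr, beside 9.42% and 9.13% of bright clusters, and the median difference of the 43 genes went from -0.06 to 0.00. The 11 genes were the chaperones Calr, P4hb and Hyou1, the ERAD genes Herpud1 and Syvn1, Eif2ak3 and Atf4, Psat1 and Shmt2, Slc7a5 and Wars, and the 1 above was Slc7a1.

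The genes with the smallest p at 40 hr were Shmt2 and Calr. For Shmt2, SIRT6 KD arrays read 8.06 to 8.40 and WT arrays 8.62 to 8.80, a difference of -0.52 (SE 0.14, adjusted p = 0.15). For Calr they read 10.68 to 10.79 against 10.93 to 11, a difference of -0.24 (SE 0.07, adjusted p = 0.168). Calr was called at 40 hr by the unmoderated test (adjusted p = 0.0476) and with a robust prior that follows brightness (adjusted p = 0.0385). The other 7 with an unadjusted p under 0.05 at 40 hr were Phgdh and Wars (-0.29 each), Psat1 (-0.21), Atf4 (-0.19), Herpud1 and Eif2ak3 (-0.18 each) and Manf (0.23). The effect of the knockdown on Calr changed by -0.34 between 0 and 40 hr (SE 0.10, adjusted p = 0.391), and that on Phgdh by -0.60 between 20 and 40 hr (SE 0.18, adjusted p = 0.998).

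At 20 hr SIRT6 KD arrays were below all WT arrays for Calr, Dnajb11, Xbp1, Atf4 and Mthfd2 and above them for Phgdh (differences of -0.22 for Atf4 and 0.32 for Phgdh, adjusted p = 0.623 and 0.662). Before induction they were above for Pdia3, Edem1 and Syvn1 and below for Trib3 and Mthfd2. For Atf4 the difference was 0.03, -0.22 and -0.19 at 0, 20 and 40 hr and -0.13 averaged over the times (SE 0.05, adjusted p = 0.281). For Ddit3, the stress gene ATF4 drives, it was -0.12, 0.04 and 0.13 (SE 0.10), with all groups overlapping, and for Chac1 -0.04, -0.06 and -0.02 (SE 0.10).

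**Figure D5:**
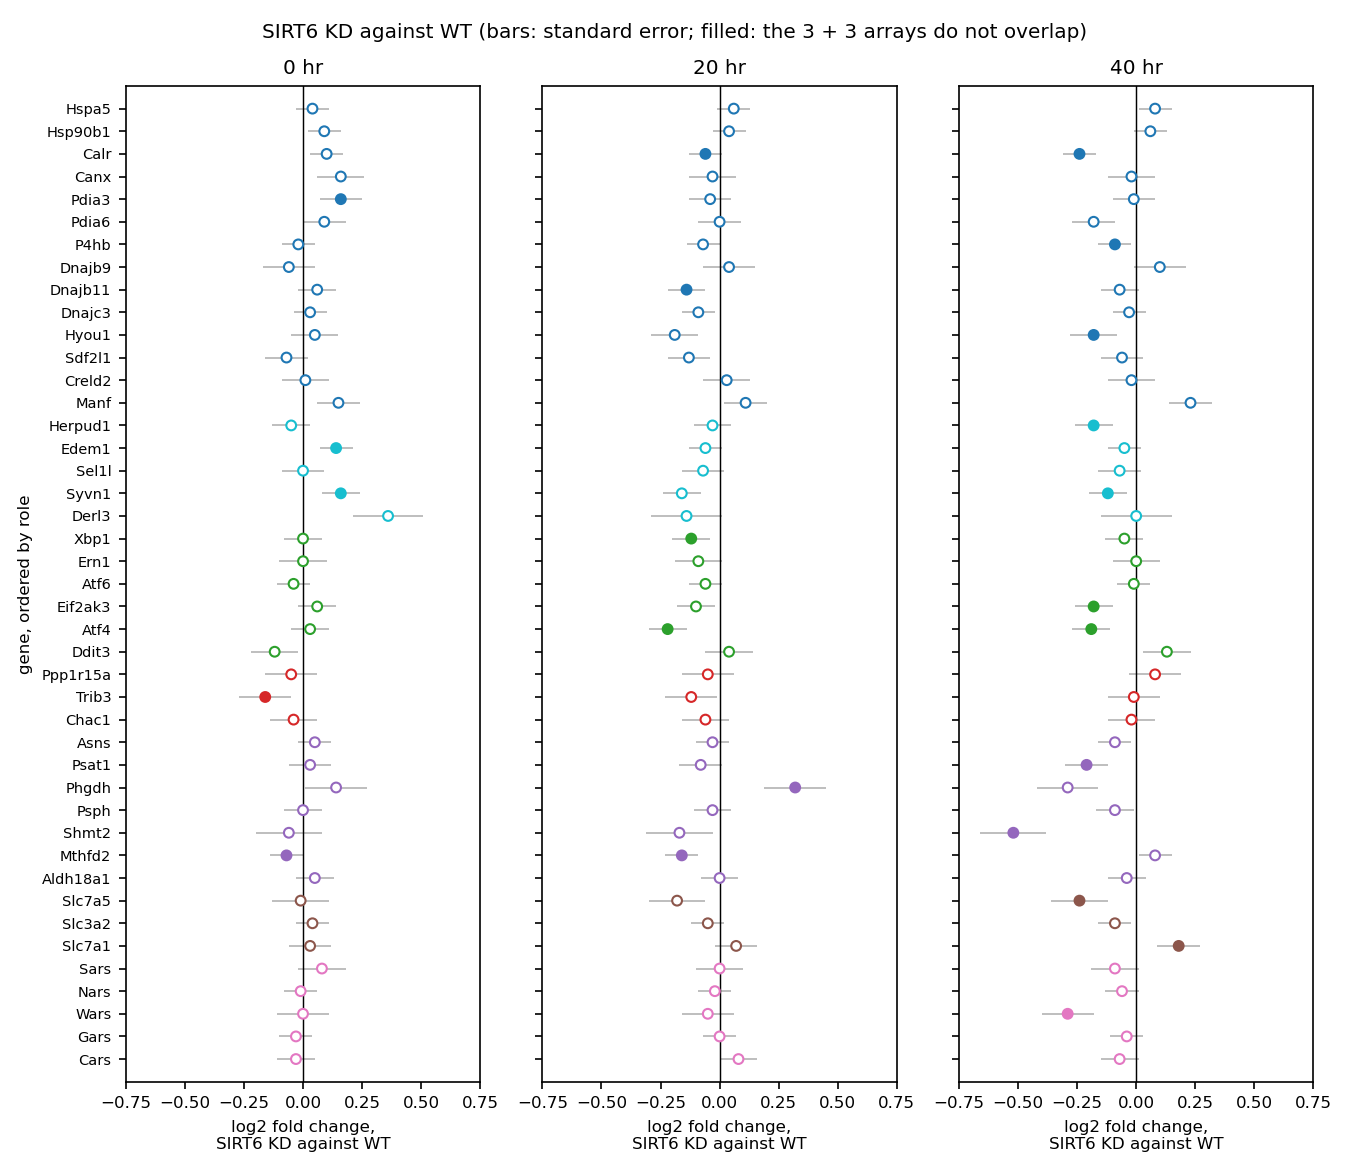
Difference SIRT6 KD minus WT in log2 signal for the 43 genes at 0, 20 and 40 hr, with SE bars; filled points mark genes whose 3 SIRT6 KD arrays do not overlap with the 3 WT arrays. Filled points number 5 at 0 hr, 6 at 20 hr and 12 at 40 hr, and 11 of the 12 lie below 0.

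Related genes outside the 47 were read from lists of the same pathways, counted with the same test. Beside these counts, 14.1% of all clusters were called higher and 11.7% lower in WT at 20 hr and 12.2% and 10.6% at 40 hr. In SIRT6 KD the shares of all clusters were 13.2% and 12.2% at 20 hr and 10.7% and 12.5% at 40 hr. Bright clusters were called more often, as given above. ER translocation and glycosylation genes (27 of 28 measured) had 11 called higher and 0 lower in WT at 20 hr and 9 and 0 at 40 hr (7 and 0 and then 5 and 0 after cyclic loess). In SIRT6 KD the counts were 6 and 0 and then 1 and 1 (6 and 1 and then 2 and 2 after cyclic loess). Their median at 40 hr was 0.03 in SIRT6 KD and 0.18 in WT as deposited, and 0.04 and 0.09 after cyclic loess. The 2 largest rises at 20 hr in WT were Ssr4, a subunit of the translocon-associated complex (0.54, SE 0.08, adjusted p = 2.78e-05), and Srprb, the membrane subunit of the signal recognition particle receptor (0.50, SE 0.08, adjusted p = 7.76e-05). At 40 hr 10 of the 27 had all SIRT6 KD arrays below all WT arrays (37%), and 6 (22.2%) after cyclic loess, beside 15.9% and 9.42% of bright clusters. limma called 0 of the 27 at 40 hr, and 9 had an unadjusted p under 0.05, which 14% of bright clusters also had. Averaged over the times, 1 of the 27 was called, Krtcap2, a subunit of the oligosaccharyltransferase (-0.25, SE 0.05, adjusted p = 0.0457), named after its value was seen. That call was lost under 18 of 21 alternatives chosen after seeing the data (adjusted p up to 0.118), among them median centring, cyclic loess and the removal of any one array other than WT 20 hr replicate 1, SIRT6 KD 20 hr replicate 2 or SIRT6 KD 40 hr replicate 1.

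Other folding enzymes and ERAD factors (33 of 35) had 11 higher and 2 lower in WT at 20 hr, 10 and 4 at 40 hr, and 6 and 3 and then 3 and 7 in SIRT6 KD. After cyclic loess these counts were 8 and 3, 9 and 7, 6 and 7 and 6 and 6, so the balance of rises and falls in this list depended on the scaling. Uggt1, the glucosyltransferase that returns misfolded glycoproteins to calreticulin and calnexin, rose in WT at 20 hr by 0.74 (SE 0.09, adjusted p = 1.56e-06), and Atf6b, the paralog of Atf6, by 0.67 (SE 0.12, adjusted p = 0.000192). Creb3l1 (OASIS), an ER-bound factor known to drive collagen genes in bone, fell by 1.21 (log2 fold change -1.21, SE 0.12, adjusted p = 2.36e-07), and Calu by 0.36 (-0.36, SE 0.08, adjusted p = 0.00108).

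Other genes of the integrated stress response and further ATF4 targets (32 of 35) were split, with 10 higher and 10 lower in WT at 20 hr, 10 and 12 at 40 hr, and 8 and 8 and then 7 and 13 in SIRT6 KD (9 and 10, 10 and 14, 8 and 9 and 7 and 13 after cyclic loess). Of the eIF2 kinases, Eif2ak1 rose in WT at 20 hr by 0.59 (SE 0.10, adjusted p = 0.000141), while Eif2ak4, the amino acid sensor GCN2, fell (-0.86, SE 0.09, adjusted p = 5.5e-07). Eif2b1, a subunit of the exchange factor that phosphorylated eIF2 blocks, rose by 0.72 (SE 0.10, adjusted p = 2.86e-05), and the stress-induced Nupr1 fell (-0.82, SE 0.11, adjusted p = 6.64e-06). Cth, which makes cysteine from cystathionine and was picked after its values were seen, rose by 1.73 in WT and 1.72 in SIRT6 KD at 40 hr on the log2 scale (SE 0.08, adjusted p = 2.66e-12 and 3.2e-12).

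Of the remaining cytosolic aminoacyl-tRNA synthetases (13 of 14 measured), none was called lower than at 0 hr. In WT 8 were higher and 0 lower at 20 hr and 7 and 0 at 40 hr, and in SIRT6 KD 8 and 0 and then 6 and 0, with all 13 above 0 at 20 hr in both genotypes. After cyclic loess 6 and 0, 6 and 0, 7 and 0 and 6 and 0 were called, and 11 and 12 of the 13 were above 0 at 20 hr in WT and SIRT6 KD. Vars, for valine, rose by 0.75 (SE 0.09, adjusted p = 4.07e-06) and Hars, for histidine, by 0.61 (SE 0.08, adjusted p = 7.69e-06) in WT at 20 hr.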

How the data were processed

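RNA of 18 samples (6 groups of 3) was hybridised to Affymetrix Mouse Gene ST arrays. The authors deposited log2 values, summarised per transcript cluster with RMA (background correction, quantile normalization and probe summary; version not given in the sources used here), and these were used as deposited. Quantile normalization gives all arrays nearly 1 distribution, so changes are relative to the other clusters of an array. Arrays carry no read depth, and 3 arrays a group limit the precision. Of 41345 clusters, 16004 had no symbol and 1820 several. The 23521 with 1 symbol were fitted with limma 3.58.1 (R 4.3.3) on the 6 group means (12 residual degrees of freedom), with no filter on dim clusters, moderated by eBayes and adjusted by Benjamini-Hochberg over all of them. "Called" means an adjusted p under 0.05. The methods name a one-way analysis of variance; its unmoderated form, and other priors, scalings, filters, array weights and models, were alternatives, as was leaving out each array, and the fit was tested on simulated data.

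Single array values are given, in each role, for the 2 genes with the largest change and the 2 with the smallest p over the 4 comparisons with 0 hr, for any gene called between genotypes (none was), and for Atf4, Ddit3, Xbp1 and Hspa5. Of each wider list, the 2 largest called rises and falls in WT at 20 hr are named. Other genes are named within their role. For calls that were lost, scalings and single arrays are named, and other settings under which they were lost are not always named. The highest adjusted p given for a lost call is that over all alternatives. Genes and lists were chosen with earlier results of these data known. Promoter windows of 36 of the 47 genes came from RefSeq and were searched in Python 3.11.15.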

Additional observations from a re-analysis of the deposited data

How the results depend on the processing

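With a fold above 1.5 required beside the adjusted p, the calls became 7 in WT at 20 hr, 7 in WT at 40 hr, 7 in SIRT6 KD at 20 hr and 7 in SIRT6 KD at 40 hr against 0 hr, and 3 in WT and 5 in SIRT6 KD for 40 against 20 hr. Array weights gave 8 calls for 40 against 20 hr in WT (5 without them), and a fit of the compared groups alone gave 5 for 40 against 20 hr in SIRT6 KD (8 in the full fit). For SIRT6 KD against WT at 40 hr, the unmoderated test and the trended robust prior gave 1 call each (Calr). Without 1 array, the calls ranged from 17 to 25 (WT at 20 hr), 15 to 20 (WT at 40 hr), 4 to 6 (WT, 40 against 20 hr), 15 to 20 (SIRT6 KD at 20 hr), 17 to 22 (SIRT6 KD at 40 hr) and 5 to 9 (SIRT6 KD, 40 against 20 hr), and stayed at 0 for SIRT6 KD against WT and for the changes of that effect. The cause of these shifts was not tested.

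Deviations of same-numbered arrays from their group means correlated at -0.22 to 0.18 and others at -0.21 to 0.26. No shared shift of same-numbered arrays was seen, which does not settle whether they were prepared together. With the replicate block the calls were 25, 19 and 5 in WT and 19, 21 and 8 in SIRT6 KD, and 0 in the other comparisons. The remaining settings kept each count within 1.5 times. Of the calls against 0 hr, 15 of 24 (WT at 20 hr), 12 of 20 (WT at 40 hr), 13 of 20 (SIRT6 KD at 20 hr) and 16 of 21 (SIRT6 KD at 40 hr) held under all 28 other alternatives, and none reversed. Median centring and cyclic loess moved the median of all clusters by at most 0.05. Values near the receptor level (Derl3, Trib3, Sirt6 and part of those of Phgdh) are close to background, where fold changes are compressed.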
